A study of Mus musculus with 2 samples.

Results

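EP300 peaks at bidirectional coding promoters are the 387 peaks of the optimal list whose summit, the base of highest signal within the peak, lay within 1 kb of the annotated starts of at least 2 protein-coding genes that are read in opposite directions. They were chosen from the 7737 peaks of that list by position alone, using the protein-coding transcripts of GENCODE release M21, after the 300 peaks with the highest signal had been left out. They make up 5.20% of the 7437 peaks that remained (exact 95% interval 4.71 to 5.73) and 14.4% of the 2695 remaining summits within 1 kb of any protein-coding start (13.1 to 15.7). The other 2308 promoter summits had starts of a single strand nearby and are called one-direction promoter peaks here. EP300 was mapped by chromatin immunoprecipitation and sequencing (ChIP-seq) in whole stomach of newborn mice, at postnatal day 0, of the strain B6NCrl. There are 2 libraries in 1 group, labelled biological replicates 1 and 2, and their biosample and donor labels are identical. The sex was not collected, no treatment or altered allele is named, and no other tissue or stage was measured. All cell types of the organ went into the same sample, so a peak in many cells and a strong peak in few cells cannot be told apart.

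A bidirectional promoter is a stretch of DNA from which a pair of neighbouring genes is transcribed in opposite directions, head to head. Such pairs are common in mammals, are often rich in CpG dinucleotides, and often encode proteins of everyday cell upkeep such as ribosome assembly, DNA repair and mitochondrial function. EP300 is a histone acetyltransferase that does not read DNA itself and is brought to promoters and enhancers by transcription factors, where it acetylates histones.

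The 5 stretches below show what lies between the starts of such pairs. Each is the strongest peak with a given motif whose summit and motif both lay between starts at most 300 bp apart, with no annotated exon in between, and each runs on the forward strand of mm10 from the base after the start of the minus-strand gene to the base before that of the plus-strand gene. Capitals mark the motif on either strand. The ETS motif (CCGGAAGT) is shown at Vmp1/Ptrh2, chr11:86683837-86683984, where the summit is base 58. The NF-Y motif (CCAATCA) is shown at the histone pair Hist1h2bf/Hist1h2ad, chr13:23574197-23574380, with the summit at base 149. The motif of KLF and SP factors (GGGCGGGG) is shown at Sharpin/Maf1, chr15:76351112-76351293, with the summit at base 113. The YY1 motif (AAGATGGCG) is shown at Idh3g/Ssr4, chrX:73786898-73787027, with the summit at base 20. The E-box (CACGTG) is shown at Slc35a5/Atg3, chr16:45158707-45158784, with the summit at base 54.
Vmp1/Ptrh2: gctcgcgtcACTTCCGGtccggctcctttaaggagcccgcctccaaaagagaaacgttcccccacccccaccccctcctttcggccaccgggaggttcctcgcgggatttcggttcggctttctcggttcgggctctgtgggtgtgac
Hist1h2bf/Hist1h2ad: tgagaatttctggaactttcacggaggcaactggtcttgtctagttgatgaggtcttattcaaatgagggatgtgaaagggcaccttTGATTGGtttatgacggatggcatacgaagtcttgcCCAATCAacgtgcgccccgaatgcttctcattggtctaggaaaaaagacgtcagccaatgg
Sharpin/Maf1: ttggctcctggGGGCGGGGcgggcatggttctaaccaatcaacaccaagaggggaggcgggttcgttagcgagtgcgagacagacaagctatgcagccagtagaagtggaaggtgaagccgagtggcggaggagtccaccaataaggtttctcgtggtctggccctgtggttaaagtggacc
Idh3g/Ssr4: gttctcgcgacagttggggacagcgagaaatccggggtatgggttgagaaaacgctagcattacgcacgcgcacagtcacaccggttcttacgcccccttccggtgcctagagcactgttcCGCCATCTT
Slc35a5/Atg3: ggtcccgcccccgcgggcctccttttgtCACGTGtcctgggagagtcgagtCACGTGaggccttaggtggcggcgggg

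The histone stretch holds 2 copies of the NF-Y motif, 1 on each strand, in 184 bp with a GC content of 46.2%. The Sharpin/Maf1 stretch also holds the NF-Y motif, in lower case, and has a GC content of 58.2%. In the Vmp1/Ptrh2 stretch, 64.2% of bases are G or C and there are 14 CpG dinucleotides in 148 bp. The E-box stretch holds 2 copies on the same strand, but its peak was weak (signal 9.19) and overlapped by a stronger one. No member met the conditions for the NRF1 motif (CGCATGCG) or the CRE (TGACGTCA).

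The lists give a signal per peak but no numbers of reads, so sequencing depth is unknown. Every list has its own signal scale, so values of different lists are not compared with each other. A peak's value in a library is that of the strongest peak of the library's list with its summit inside it. Of the 387 peaks, 356 had such a match in replicate 1 and 369 in replicate 2. Peaks of the optimal list can overlap: 122 of the 387 (31.5%) were overlapped by a stronger optimal peak, and 19 lay in a run of overlapping peaks with 1 of the 300 strongest. Overlapping peaks can share the same match in a library, so results are also given for the 265 peaks that no stronger peak overlapped. Intervals of shares are exact (Clopper-Pearson) 95% intervals that cover counting error only, and peaks and genes are not replicates of a condition. With 1 group, no test between conditions is possible, and the classes of promoter are set side by side as a description.

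Bidirectional coding genes had an EP300 summit within 1 kb of a start more often than other coding genes. Of 21853 coding genes, 2493 had a coding start of the other strand within 1 kb of one of their own starts, and 597 of them had a summit (23.9%, interval 22.3 to 25.7). Of the 19360 genes without such a neighbour, 1627 had one (8.4%). The share over all coding genes was 10.2%. With the 300 strongest peaks kept in, the shares were 26.8% of bidirectional genes, 9.14% of the others and 11.1% of all. The ratio between the classes was 2.85 without and 2.93 with those peaks. A gene counts here even where its opposite neighbour lay over 1 kb from the summit itself.

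The share of genes with a summit also differed with CpG content and with the number of annotated starts, so the classes were set side by side within ranges of each. All shares in these ranges were counted with the strongest peaks kept in. They therefore divide the shares of 26.8% and 9.14% given above. In 5 ranges of the ratio of observed to expected CpG around the most upstream start, the bidirectional share was 11.6%, 27.1%, 25.9%, 28.4% and 31.0%, from the lowest range to the highest. The share of other genes rose over the same ranges through 2.43%, 6.91%, 13.6% and 15.6% to 18%. The intervals of the classes did not overlap in any of the 5 ranges, and the ratio between them was smaller at the CpG-rich end. Among genes with a single annotated start, 25.8% of bidirectional genes (188 of 730) and 6.14% of the others (461 of 7506) had a summit. Among genes with 4 or more starts the shares were 31.4% and 16.2%. A bidirectional gene shares its neighbour's summits, and the part of that sharing in these shares was not tested.

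**Figure D1:**
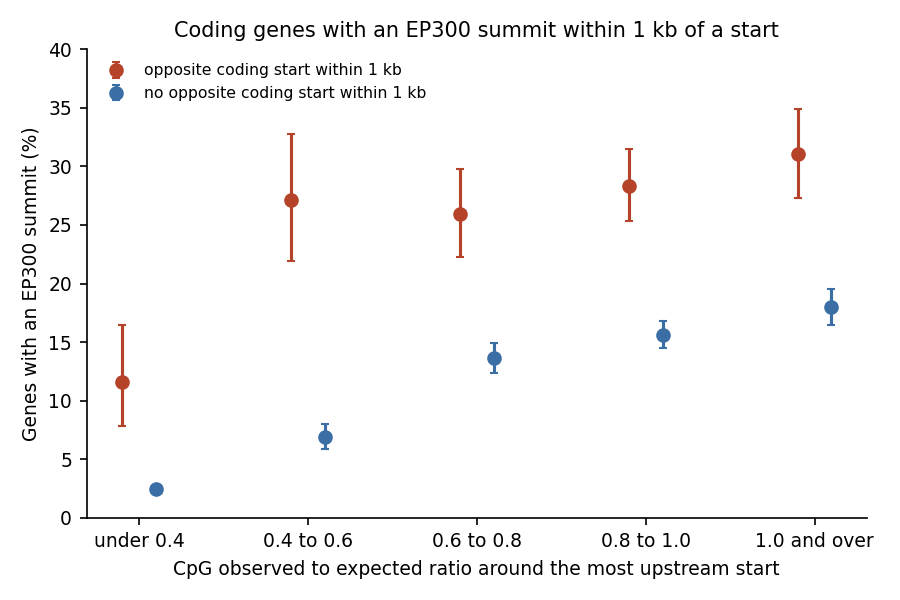
Share of protein-coding genes with an EP300 summit within 1 kb of a start (y axis, %), by the ratio of observed to expected CpG around the most upstream start (x axis), for genes with (red) and without (blue) a coding start of the other strand within 1 kb. The counts include the strongest peaks, which were left out of the members. Bars are exact 95% intervals. Red lies above blue in all 5 ranges, by 11.6% against 2.43% in the lowest and 31.0% against 18% in the highest.

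Pairs of genes were also counted, again with the strongest peaks kept in. Of the 1268 annotated pairs with starts at most 1 kb apart, 315 had a summit within 1 kb of both genes (24.8%, interval 22.5 to 27.3). The share was 24.5% for pairs with starts 1 to 100 bp apart (105 of 428) and also 24.5% for those 101 to 200 bp apart (68 of 278). It was 31.9% at 201 to 400 bp (58 of 182) and 27.8% at 401 to 1000 bp (32 of 115). Pairs whose first stretches overlap, so that each start lies inside the other gene, had a summit in 19.1% (overlap up to 200 bp) and 20.2% (longer overlap). The intervals of all these shares overlap.

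The 387 peaks were slightly stronger than one-direction promoter peaks. Their median signal was 33.0 (quartiles 24.9 and 43.5, range 7.70 to 81.2), against 30.3 (22.3 and 40.1) at the 2308 one-direction peaks, a ratio of 1.09. In replicate 1 the medians were 21.2 and 18.7 (ratio 1.14), and in replicate 2 they were 20.8 and 17.6 (ratio 1.18). Among peaks that no stronger peak overlapped, the medians were 37.2 (n = 265) and 33.5 (n = 1683), and the ratios in the libraries were 1.13 and 1.16. The direction was thus the same in both libraries, while the quartile ranges of the classes overlapped for most of their length. Of the 387 peaks, 72.1% were in the conservative list with the same interval and summit (67.3 to 76.5). For one-direction peaks this was 60.7% (58.6 to 62.7). A peak with a shifted edge or summit counts as absent here. The conservative list, classified in the same way, held 385 bidirectional and 2172 one-direction promoter summits.

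Strong promoter peaks were bidirectional more often than weak ones. The 2695 promoter summits were ordered by signal and cut into 5 equal groups. The bidirectional share was 17.8% in the strongest (96 of 539, interval 14.7 to 21.3), then 15.8%, 12.1% and 14.5%. In the weakest it was 11.7% (63 of 539, interval 9.1 to 14.7). Of the promoter summits with a signal of 60 or more, 20.9% were bidirectional (39 of 187, interval 15.3 to 27.4). Among the 300 peaks left out, 55 of the 257 promoter summits were of this kind (21.4%, 16.5 to 26.9). The median signal of these 55 was 122.4, against 124.6 at the 202 left-out one-direction peaks. The order of the 5 groups was not even from step to step, since the fourth stood above the third. The intervals of the strongest and weakest groups overlapped narrowly.

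**Figure D2:**
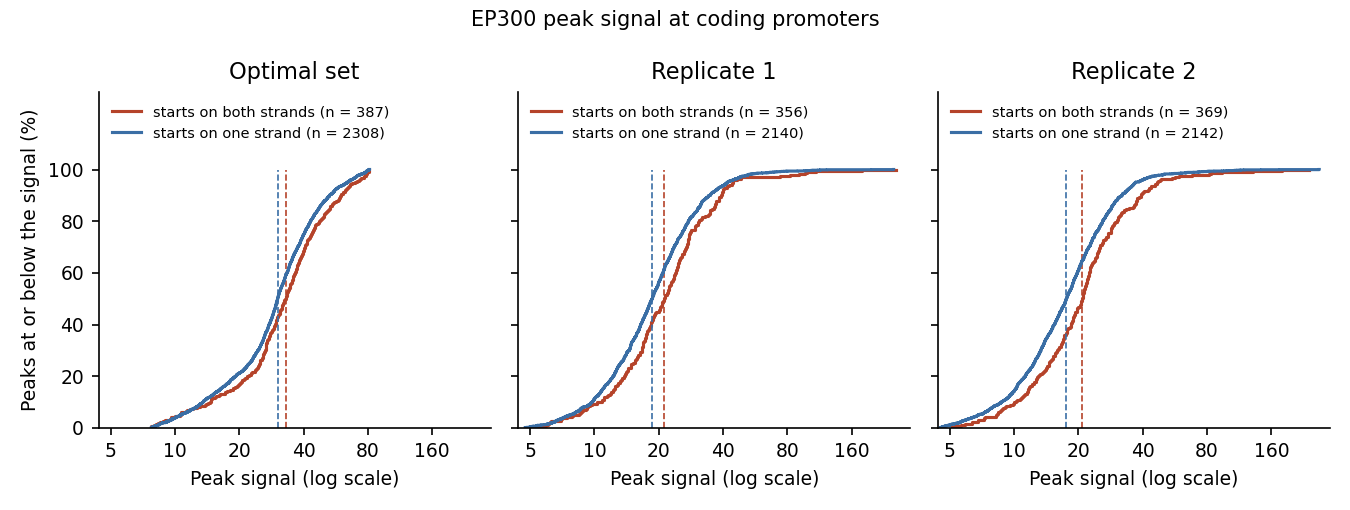
Cumulative share of peaks (y axis, %) by peak signal (x axis, log scale) in the optimal list and in each replicate, for promoter peaks with coding starts on both strands (red) and on one strand (blue). Dashed lines mark the medians, 33.0 and 30.3 in the optimal list, 21.2 and 18.7 in replicate 1, and 20.8 and 17.6 in replicate 2. The red curve lies to the right of the blue over most of its length, and the curves run close together at both ends.

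Values of single peaks agreed only loosely between the libraries. Across the 343 members matched in both, Pearson's r of log2 signal was 0.54 and Spearman's rho 0.46, and across the 242 of these that no stronger peak overlapped r was 0.30. Across one-direction peaks r was 0.40 (n = 1992) and 0.27 (n = 1514). The points of each correlation share their libraries and the IDR selection. The summits called in the libraries lay a median of 60 bp apart at members (quartiles 20.5 and 134.5) and 63 bp at one-direction peaks.

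Of the 12 regions with the strongest member, the first lay at Zfp661/Mrps5 (chr2:127587017-127587576), with a signal of 81.2 in the optimal list, 37.3 in replicate 1 and 45.5 in replicate 2. Mrps5 encodes a protein of the small subunit of the mitochondrial ribosome and Zfp661 a zinc-finger protein, and the summit lay 75 bp inside Mrps5. The peak of Idh3g/Ssr4 (chrX:73786637-73787196) had 81.0, 39.3 and 43.3 in the same order. Idh3g encodes a subunit of the NAD-dependent isocitrate dehydrogenase of mitochondria, and Ssr4 a subunit of the translocon-associated complex of the endoplasmic reticulum.

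At Rad17/Ak6 (chr13:100650961-100651520) the values were 80.5, 35.6 and 46.3, with the summit between starts 292 bp apart. Rad17 loads the checkpoint clamp onto damaged DNA, and Ak6 is a nuclear adenylate kinase. The peak of Rps28/Ndufa7 (chr17:33824262-33824821) had 80.1, 39.2 and 39.4, and the starts of this gene of the small cytosolic ribosomal subunit and this gene of respiratory complex I lie 10 bp apart. The peak of Sf3b3/Cog4 (chr8:110846608-110847167) had 79.4, 31.6 and 48.1. Sf3b3 is a core subunit of the U2 spliceosomal particle and Cog4 a subunit of a Golgi tethering complex. In all 5 of these regions both libraries had their own summit within 100 bp of the optimal one.

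The others of the 12 were alike in strength. At Hs2st1/Selenof, a heparan sulfate sulfotransferase gene and a selenoprotein gene, the values were 79.0, 41.8 and 37.8. At Chmp1a/Spata33, where Chmp1a belongs to the ESCRT-III membrane-scission machinery, they were 78.5, 48.7 and 28.6. At Vmp1/Ptrh2, an autophagy gene and a mitochondrial peptidyl-tRNA hydrolase gene, whose stretch is printed above, they were 77.6, 38.4 and 41.6, and the summits of the optimal list and both libraries fell within 1 bp of each other (86683894, 86683894 and 86683895). The histone pair Hist1h2bf/Hist1h2ad had 76.3, 30.4 and 40.1. At Bcl6/Gm37419, a transcriptional repressor gene and a predicted gene with overlapping starts, replicate 2 gave 48.7 and replicate 1 gave 21.1, beside 76.5 in the optimal list. The peaks at Slc25a11/Rnf167 (79.4) and Lrsam1/Rpl12 (78.0) were overlapped by stronger peaks, and their matches in the libraries (108.5 and 109.4, then 82.3 and 94.1) had summits about 200 bp away, in the stronger neighbour.

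The limit of 300 left-out peaks cut through a continuous range. Just above it lay bidirectional peaks at Alg2/Sec61b (81.8), Eftud2/Ccdc103 (84.9), Slc39a7/Rxrb (85.3) and Nubp2/Spsb3 (86.0), and just below it the peaks of Zfp661/Mrps5, Idh3g/Ssr4, Rad17/Ak6 and Rps28/Ndufa7 given above. At the limit of 1 kb, members with a far second gene were Sart3/Iscu (987 bp, signal 64.9), Senp1/Pfkm (980 bp, 11.4) and Wrap53/Trp53 (966 bp, 53.4). Just outside were Hnrnpdl/Enoph1 (1005 bp, 12.9), Dido1/Gid8 (1007 bp, 14.1) and Rangap1/Zc3h7b (1017 bp, 13).

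Summits at bidirectional promoters lay close to the starts, and less often upstream of the nearest start than one-direction summits did. The nearest coding start was a median of 97 bp away (quartiles 44.5 and 177), against 169 bp (74 and 355) at one-direction promoters. Within 250 bp of a start lay 85.3% of members (81.3 to 88.6) and 64.1% of one-direction summits (62.1 to 66). Upstream of the nearest start lay 44.7% of members (interval 39.7 to 49.8), with a median position 21 bp inside the gene, against 62.2% of one-direction summits (60.2 to 64.2), with a median position of -70 bp, that is upstream. A promoter with starts on both sides offers more starts to be near to. At divergent starts, a summit inside either gene also lies upstream of the other gene's start. The arrangement of the starts was therefore examined directly. Of the 387 peaks, 314 had nearest starts that diverge and lie at most 1 kb apart (227 pairs, median distance between starts 177.5 bp). A further 7 had divergent starts farther apart, and 66 (17.1%) had starts that overlap. Upstream of the plus-strand start lay 64.6% of the 314 summits, and upstream of the minus-strand start 77.1%.

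Of the 314 summits, 131 fell between the starts (41.7%, interval 36.2 to 47.4) and the other 183 inside a gene. The space between the starts was on average 16.4% of the stretch in which a summit would have met the selection rule. This gives the size of the space and not an expectation, since one-direction summits also crowd near starts (64.1% within 250 bp). For the summits called in each library alone, the share between the starts was 50.9% in replicate 1 (147 of 289) and 49.5% in replicate 2 (149 of 301). It was 48.1% among the 214 peaks that no stronger peak overlapped and 28.0% among the 100 that one did. The share grew with the space: with starts 1 to 100 bp apart, 23.7% of 76 summits lay between them, where the space was 3.28% of the allowed stretch. At 101 to 200 bp the share was 34.8% of 89 (space 7.73%), at 201 to 400 bp it was 51.8% of 85 (space 16.5%), and at 401 to 1000 bp it was 59.4% of 64 (space 43.8%).

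**Figure D3:**
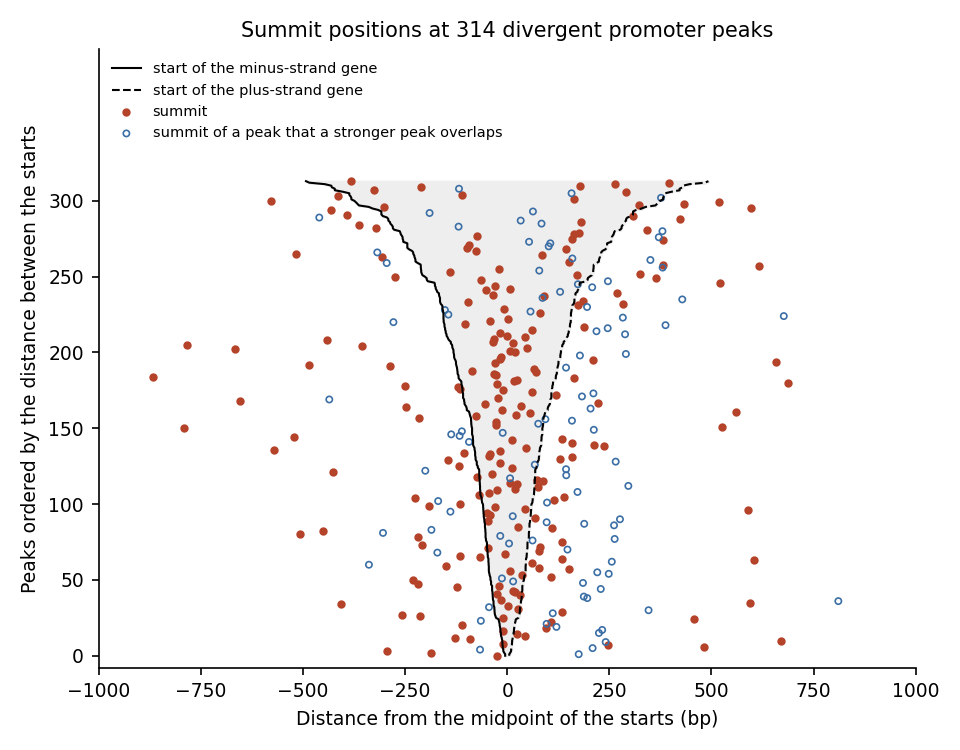
Position of 314 summits relative to the midpoint between the nearest divergent starts (x axis, bp), with 1 summit per step of the y axis, ordered by the distance between the starts. Lines mark the starts, grey shading the space between them, filled points peaks that no stronger peak overlaps and open points the others. Filled points crowd along the midline, with 48.1% in the grey space, while open points lie mostly to its right.

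The midpoint between the starts lay a median of 139 bp from the summit in the optimal list, 101.5 bp in replicate 1 and 114.5 bp in replicate 2. Within 100 bp of it lay 124 of the 314 summits (39.5%). Peaks with a summit between the starts had the higher median signal. Over all 321 divergent peaks, the median signal was 38.0 for the 138 summits between the starts, 29.7 for the 72 inside the minus-strand gene and 29.0 for the 111 inside the plus-strand gene. These medians include overlapped peaks, which were weaker over all 387 members (median 23.4, against 37.2 for the rest). Overlapped peaks also lay between the starts less often, and signal by position was not examined without them. Of the divergent bidirectional summits among the 300 strongest peaks, which are not members, 35 of 48 lay between the starts (72.9%, interval 58.2 to 84.7).

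The overlapped peaks lay more often on the side of the plus-strand gene, which at divergent starts is by definition the side of higher coordinate. Of the 314 summits, 179 lay on the side of the plus-strand gene (57.0%, interval 51.3 to 62.6). Among peaks that no stronger peak overlapped this share was 49.5% (106 of 214), and among the overlapped it was 73.0% (73 of 100). Of the 122 overlapped members, 98 (80.3%) lay at a higher coordinate than the summit of their strongest overlapping peak, at a median distance of 217.5 bp and never nearer than 199 bp. The same held at one-direction promoters, where 508 of 625 (81.3%) lay at a higher coordinate, again never nearer than 199 bp. The library summits were split almost evenly, with 53.6% and 47.2% on the plus-strand side.

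Some pairs carried several summits. Of the 278 nearest pairs, 180 had 1 summit, 87 had 2 and 11 had 3. Among the 79 divergent pairs with more than 1, the outermost summits were a median of 219 bp apart, and in 37 pairs (46.8%) they lay on both sides of the midpoint. The strongest summit of such a pair had a median of 1.94 times the signal of the weakest. At Mcm4/Prkdc, which joins a subunit of the replicative helicase to the kinase of DNA end joining, summits of 54.8 and 29.1 lay between starts 489 bp apart, 147 bp from Mcm4 and 143 bp from Prkdc. The weaker peak was overlapped by the stronger, and both were matched to the same library peaks (28.1 in replicate 1 and 30.4 in replicate 2). At Rad9b/Vps29, a checkpoint clamp gene and a retromer gene, 3 summits had signals of 37.2, 33.1 and 31.7. The peaks of 33.1 and 31.7 were each overlapped by a stronger one.

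The 66 peaks at overlapping starts had a median signal of 29.4 (quartiles 20.9 and 40.1), against 33.4 (25.2 and 44.3) at the 314 divergent ones. At Gga3/Mrps7 (chr11:115603750-115604309), a Golgi adaptor gene and a mitochondrial ribosomal gene whose starts overlap by 126 bp, the values were 72.5, 43.9 and 39.9. At Ccdc77/Kdm5a, the latter a histone H3 lysine 4 demethylase, they were 58.6, 27.4 and 31.5. The peak of Atp5f1/Wdr77 stood apart: its interval (chr3:105959124-105959568) is listed again among the strongest peaks of the optimal list with another summit, so that its signal of 10.01 was matched to library peaks of 256.6 and 238.7.

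The sequence around the summits was rich in CpG in both classes. In a window of 201 bp centred on the summit, the median ratio of observed to expected CpG was 0.81 at members (quartiles 0.68 and 0.97) and 0.74 at one-direction peaks (0.52 and 0.91). The median GC content was 60.2% and 59.2%, a difference that vanished or turned under other settings. Around the midpoints of all 1268 annotated pairs the medians were 0.85 and 63.2%. Around all optimal summits they were 0.37 and 50.7%.

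Of 15 short motifs searched on both strands in that window, NF-Y differed most in favour of the members among those found in more than 10 of them. NF-Y is a factor that binds the CCAAT box of many promoters. Its motif CCAATCA was found at 41 of 387 members (10.6%, interval 7.71 to 14.1), at 5.94% of one-direction summits (5.01 to 6.98), at 11.2% of all annotated bidirectional pairs and at 5.93% of all annotated one-direction starts. The members' share was thus near that of bidirectional promoters at large. Where a member with the motif had divergent starts at most 1 kb apart, the site lay between them in 28 of 35, and over the 41 it lay a median of 35 bp from the summit.

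The strongest members with the NF-Y motif were the histone pair printed above, Tcf19/Cchcr1 (74.3 in the optimal list, 26.7 and 45.8 in the libraries) and Sharpin/Maf1 (69.7, 26.3 and 37.6). Sharpin is a subunit of the linear ubiquitin ligase and Maf1 a repressor of RNA polymerase III. The genes Mcm4, Recql, Mis12, Cenpk, Smc1a, Cenpl and Cdca8, all of chromosome replication, repair or segregation, also lay at members with this motif. These genes were picked out after their values had been seen. Genes of other functions lay at such members too, as Mrpl48 of the mitochondrial ribosome and the chaperone gene Dnajb11. The share of each function was not compared between members with and without the motif.

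The ETS motif CCGGAAGT, bound by factors such as GABPA and ELK1, was found at 25 members (6.46%, 4.22 to 9.39) and 5.33% of one-direction summits. It was found at 9.46% of annotated pairs and 3.80% of annotated one-direction starts. Sites lay a median of 44.5 bp from the summit, and between the starts in 13 of 20. Besides Vmp1/Ptrh2, strong members with it were Cdc45/Ufd1 (62.9, 38.4 and 28.6), a replication helicase gene beside a ubiquitin-chaperone gene, and Uqcrh/Lrrc41 (61.4, 25.7 and 26.2), with Uqcrh encoding a subunit of respiratory complex III. The KLF and SP motif was found at 53 members (13.7%) and 13% of one-direction summits, both below the 22.6% of annotated pairs, and the order of members and one-direction summits turned in 4 of 10 alternatives.

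Motifs frequent at optimal summits away from coding promoters were found at few members, as at bidirectional promoters in general. The AP-1 motif TGANTCA, bound by FOS and JUN, was found at 10 members (2.58%, 1.25 to 4.70), 5.24% of one-direction summits (4.37 to 6.23), 2.44% of annotated pairs and 17.7% of optimal summits away from coding promoters. The TEAD motif CATTCCA was found at 9 members (2.33%), 2.82% of one-direction summits, 1.18% of annotated pairs and 6.50% of those away from promoters. The sequence TATAAA was found at 16 members (4.13%), 5.63% of one-direction summits and 3.08% of annotated pairs. For each of these 3 motifs the share at members was not below that of annotated pairs.

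The motif TCTCGCGAG, bound by BANP, set the left-out peaks apart from the members. It was found at 8 of 387 members (2.07%) and 2.56% of one-direction peaks, but at 25 of the 55 bidirectional peaks among the 300 strongest (45.5%, interval 32.0 to 59.4) and 93 of the 202 one-direction peaks there (46.0%). Over annotated pairs its share was 2.21%. Members with it had a median signal of 48.2, against 32.5 for those without, and included Rps28/Ndufa7, Ofd1/Trappc2 (71.2, 36.7 and 37.7) and Ska3/Mrpl57 (54.5, 36.9 and 24.3). The YY1 motif was found at 10 members (2.58%), 2.34% of one-direction peaks, 2.92% of annotated pairs and 1.65% of one-direction starts. Without overlapped peaks the shares were 0.755% and 2.61%, and with 1 peak per region 1.06% and 2.66%, so that the direction turned, as it did in 4 of 10 alternatives in all. None of the 6 YY1 sites at divergent members lay between the starts, and the copy printed for Idh3g/Ssr4 lies just outside its summit window. The E-box was found at 27 members (6.98%), 6.11% of one-direction peaks and 7.49% of annotated pairs, and its order turned in 3 of 10 alternatives. NRF1 (5 members), the CRE (7), E2F (GGCGGGAA, 8), RFX (GTTGCNANG, 9) and GRHL (AACCGGTT, 1) were rare. ZNF143 (ACTACAATT) was found at 0 of 387, with an exact interval up to 0.949%. Of the members, 204 held none of the 15 motifs.

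**Figure D4:**
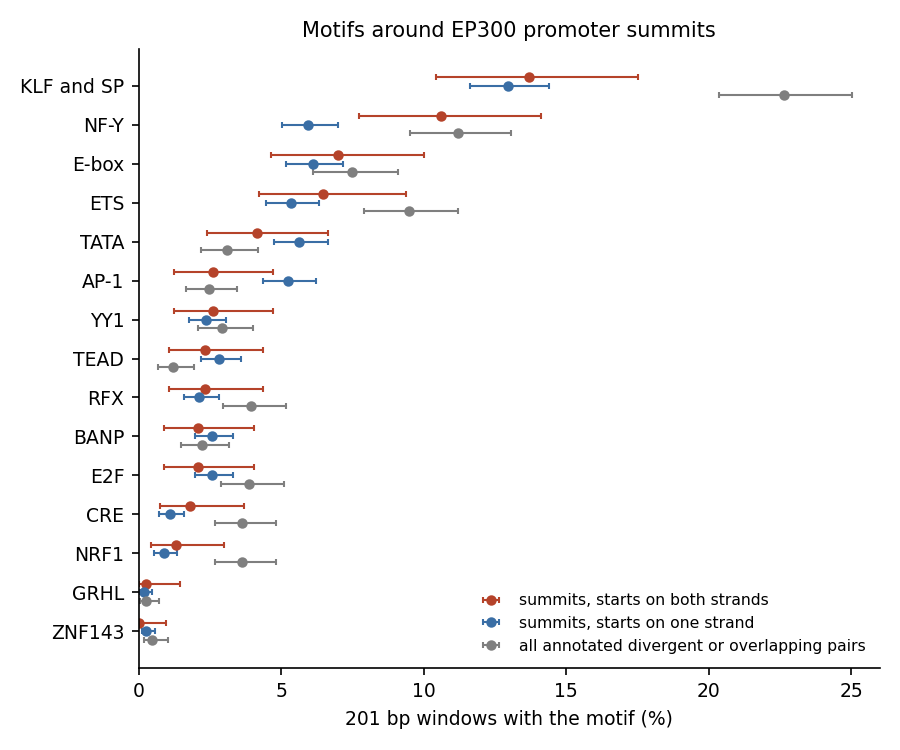
Share of windows of 201 bp with each motif (x axis, %), around summits at promoters with coding starts on both strands (red, n = 387), around summits at promoters with starts on one strand (blue, n = 2308) and around the midpoints of all annotated bidirectional pairs (grey, n = 1268), with exact 95% intervals. For NF-Y the red point (10.6%) lies near the grey (11.2%) and above the blue (5.94%), and for AP-1 it lies below the blue (2.58% and 5.24%).

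The genes at members were described by 26 lists of genes by function, beside the genes at one-direction peaks and without a test of any list. A total of 561 genes had a start within 1 kb of a member and 1683 within 1 kb of a one-direction peak, and 21 genes were in both sets. Of the members' genes, 30.8% were in at least 1 list (interval 27.04 to 34.8), against 25.2% of genes at one-direction peaks (23.1 to 27.3) and 19.4% of all coding genes, and the intervals of the classes at peaks overlap slightly. Since bidirectional promoters favour some functions whether EP300 is there or not, the share of a list that is bidirectional in the annotation is given beside the larger differences. Where the share of a list's genes with a summit is given, the strongest peaks were kept in, so some of these summits are not members. Counted in that way, 26.8% of all bidirectional genes and 9.14% of the others had a summit.

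Genes of mitochondria were among the lists with the widest difference in share. Proteins of the mitochondrial ribosome made up 9 of the members' genes (1.60%) and 0.357% of those at one-direction peaks, and 42.3% of the list is bidirectional in the annotation. Among its bidirectional genes, 24.2% had a summit (8 of 33), near the 26.8% of all bidirectional genes counted in the same way. After Mrps5 and Mrps7, given above, the strongest were Mrps18b/Ppp1r10 (55.1 in the optimal list, 18.9 in replicate 1 and 42.2 in replicate 2) and Ska3/Mrpl57. Subunits of the respiratory chain and ATP synthase made up 12 genes (2.14%, against 0.713%). Of this list 34.5% is bidirectional in the annotation, and 36.8% of its bidirectional genes had a summit (14 of 38). The peak of Ndufa4/Phf14 had 73.1, 39.8 and 29.0, and that of Ndufs1/Eef1b2 had 66.6, 30.6 and 36.3. Both genes named first encode respiratory chain subunits, Phf14 encodes a chromatin reader and Eef1b2 a translation elongation factor, and both summits lay within 3 bp of the midpoint. Protein import into mitochondria had a single gene, Timm9 (0.178%, against 0.475%).

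Genes of DNA replication, repair and mitosis also had larger shares at members, and many of them are bidirectional in the annotation. Replication and repair had 14 genes at members (2.50%, against 1.13% at one-direction peaks). Of this list 38.4% is bidirectional, and 26.2% of those genes had a summit (16 of 61), near the 26.8% of all bidirectional genes. They include Mcm4 and Mcm7 of the replicative helicase, Orc1 and Orc6 of the origin recognition complex, and Xrcc3, Xrcc4 and Parp2 of DNA break repair. The peak of Mcm7/Ap4m1 (chr5:138170848-138171407) had 66.1, 44.1 and 29.8. Kinetochore, spindle and chromosome segregation had 11 genes (1.96%, against 0.713%). A share of 33.3% of this list is bidirectional, with a summit at 45.2% of the bidirectional genes (14 of 31) and 17.7% of the others. At Ift80/Smc4, a gene of cilium transport beside a condensin gene, the values were 55.5, 34.4 and 19.96. Centrosome and cilium genes numbered 6 (1.07%, against 0.416%), with 30.2% of the list bidirectional and a summit at 20.7% of those.

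RNA processing and transcription followed. Modification and processing of RNA had 13 genes (2.32%, against 0.832%; 36.4% of the list bidirectional), with the strongest peak at Utp18/Mbtd1 (74.8, 27.5 and 37.2), the former a gene of ribosomal RNA maturation. Splicing factors had 13 genes (2.32%, against 1.43%; 32.3% of the list bidirectional), and 51.6% of the bidirectional splicing genes had a summit (16 of 31), beside 35.4% of the others. Basal transcription had 13 genes (2.32%, against 1.66%; 24.4% of the list bidirectional), led by Noa1/Polr2b (72.4, 36.2 and 44.9), where Polr2b is the second-largest subunit of RNA polymerase II and the starts lie 63 bp apart. The list of enzymes that load tRNA had 5 genes (0.891%, against 0.297%, with 31.6% of the list bidirectional). It also counts Aimp1, which is not itself such an enzyme.

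Histone genes often faced each other across a member. They made up 13 genes at 7 members (2.32%, against 1.31%), in 6 pairs with histones on both strands, and 32.9% of the list is bidirectional in the annotation. Among the other lists, both nearest genes of a pair belonged together once, at the zinc-finger genes Zfp668 and Zfp646. Apart from Hist1h2bf/Hist1h2ad, the peaks were weak to moderate: Hist2h2ac/Hist2h2be had a signal of 32.3 (15.6 in replicate 1 and 16.5 in replicate 2), Hist1h2an/Hist1h2bp had 27.7 (27.6 and 8.48) and Hist1h2bh/Hist1h3f had 26.7 (18.7 and 7.29). The median over the 7 was 26.7, below the 33.0 of all members. Histone genes are near copies of each other, so reads could have been placed at the wrong copy, and how such reads were treated is not given in the sources used here.

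Membrane traffic had the most genes of any list, 17 (3.03%, against 1.84%, with 17.3% of the list bidirectional), among them Vps29 and Vps35 of the retromer, Copa of the COPI coat and Sec23a of the COPII coat. Ofd1/Trappc2 had its summit between starts 72 bp apart. The cytosolic ribosome stood at 8 genes (1.43%, against 1.60%) and was not more frequent at members. Of its bidirectional genes 73.3% had a summit (11 of 15), and of the others 53.8% (35 of 65), the highest shares of any list in each class.

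Other lists had a smaller share at members than at one-direction peaks. The zinc-finger list had 11 genes (1.96%, against 3.68% at one-direction peaks), counting Zbtb8os, which does not itself encode a zinc-finger protein. Ubiquitin conjugation had 4 (0.713%, against 1.54%) and chromatin modifiers 7 (1.25%, against 2.02%). Of these lists 8.60%, 13.2% and 11.6% are bidirectional, beside 2493 of all 21853 coding genes. Among their bidirectional genes, the share with a summit was above that of the others, at 30% against 14.6% for zinc-finger proteins, 20% against 17.1% for ubiquitin conjugation and 50% against 29.5% for chromatin modifiers. Of developmental transcription factors, 3.29% of which are bidirectional, only Foxj3 lay at a member (0.178%, against 0.713%), with values of 33.6, 23.9 and 16.2. Ligands and receptors were represented by Fgf20, a fibroblast growth factor, at Fgf20/Micu3 (42, 21 and 22.8) and Ccl25, a chemokine of the gut, at Elavl1/Ccl25 (28.8, 16.9 and 17.8). Their share was 0.356%, against 1.13%. No gene of smooth muscle contraction, collagen, keratin or olfactory reception lay at a member. Here 0 of 561 genes allows a share of up to 0.535%, taken as 3 counts and not as an exact interval. None of the 28 smooth muscle genes and 53 keratin genes is bidirectional in the annotation, while 9 smooth muscle genes lay at one-direction peaks. Peak lists hold no RNA levels, so these lists do not check the labelled tissue.

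The remaining lists differed little or had few genes. The shares were 0.713% and 0.772% for translation factors (4 genes), 0.535% in both classes for RNA helicases (3 genes), 0.357% and 0.297% for the proteasome (2 genes), and 0.713% and 1.07% for chaperones (4 genes). None of these differences was tested, and the lists hold too few genes for shares this small to be told apart by their counts.

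**Figure D5:**
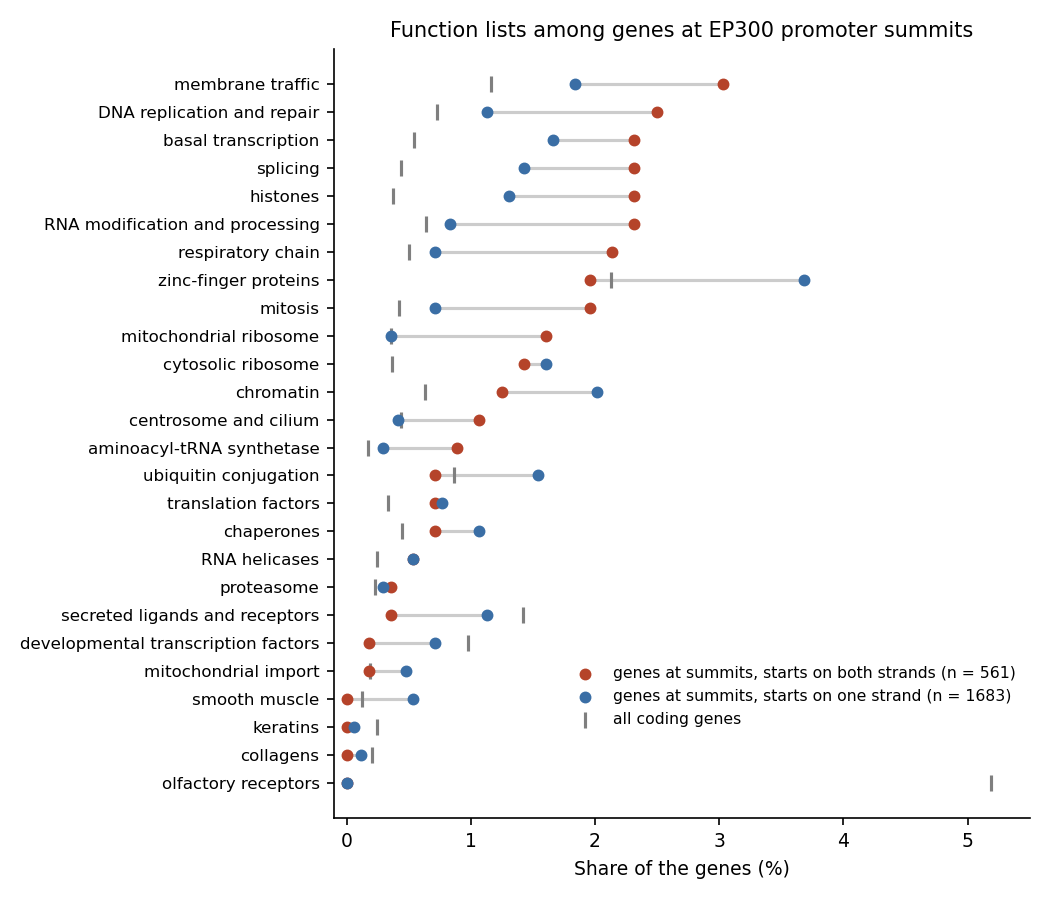
Share of genes that belong to each of 26 function lists (x axis, %), among the 561 genes at promoter summits with coding starts on both strands (red), the 1683 genes at summits with starts on one strand (blue) and all coding genes (grey ticks). Red lies farthest to the right of blue for RNA modification, the respiratory chain, replication and repair, mitosis and the mitochondrial ribosome (1.60% against 0.357%), and farthest to its left for zinc-finger proteins (1.96% against 3.68%).

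Some one-direction promoters have a non-coding transcript start on the other strand. Such a start lay within 1 kb of 395 of the 2308 one-direction summits (17.1%, interval 15.6 to 18.7). Their median signal was 32.0 (quartiles 24.2 and 42.3), between the 29.96 of the other one-direction summits and the 33.0 of the members. Their median distance to the nearest coding start was 157 bp, near the 169 bp of all one-direction summits and above the 97 bp of the members.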

How the data were processed

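The deposited data are narrowPeak lists (mm10) of each replicate and of the pooled reads, and optimal and conservative sets chosen from them by the irreproducible discovery rate (IDR), per the readme texts. Peak strength is the signal value that the authors deposited, and each list has its own scale. The authors' IDR sets also carry a scaled IDR score. The deposited summit is a distance in bp inside the peak, which is neither a signal nor a score. Which peak caller and aligner were used is not given in the sources used here. Possible controls are named in the labels, without the list each served.

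Starts came from protein_coding transcripts of GENCODE release M21, and sequence from GRCm38, the same assembly as mm10. A total of 7733 optimal peaks lay on named chromosomes. Divergent starts have the minus-strand start at the lower coordinate. Genes were named by rule: the 12 regions with the strongest members, the 2 strongest members per function list, and 4 members on each side of both limits; further genes, such as other list members, motif carriers and pairs with several summits, were added after their values were seen. Some peaks named by this rule are left out of the text. The members, lists, motifs and rules were chosen with earlier results of these data known. No test was run, since there is 1 group. Classification was tested on simulated peaks. Python 3.11.15, pandas 2.3.3, numpy 2.4.6, scipy 1.17.1 and pysam 0.24.0 were used. Alternatives were the conservative set, the strongest peaks of each library alone, other distances, start definitions and windows, merged regions, full-width peaks and, added after seeing the data, peaks that no stronger peak overlaps.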

Additional observations from a re-analysis of the deposited data

How the results depend on the processing

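Depth is unknown, so no limit of detection can be given. Of 74 alternative values of the comparisons, 39 moved by less than their error and 1 changed sign; of 326 motif and list shares, 296 did not move beyond it. With the 300 strongest kept in, the log2 signal difference between bidirectional and one-direction peaks was 0.17, the distance difference -65 bp, the gene shares 26.8% and 9.14% and the GC difference 0.50 points. Within 500 bp of a start, the bidirectional share of promoter summits was 12.8%, the signal difference 0.17, the distance difference -54 bp, the gene shares 21.4% and 7.45% and the GC difference 0. With divergent starts alone the share was 12%. With starts of every transcript, the distance difference was -81 bp, the one-direction gene share 8.81% and the GC difference 1.99 points. With the most upstream start alone, the signal difference was 0.11, the share of summits between the starts 35.9%, the one-direction gene share 7.57% and the GC difference 0.50 points. With 1 peak per region, the signal difference was 0.15, the distance difference -63 bp and the GC difference 0. In a window of 250 bp to each side the GC difference was 0.80 points. Among peaks that no stronger peak overlaps, added after seeing the data, the signal difference was 0.15, the share between the starts 49.5% and the GC difference -0.50 points. Leaving out a replicate gave signal differences of 0.091 to 0.12, 46.1% to 49.3% of summits between the starts, distance differences of -80.5 to -72 bp, bidirectional gene shares of 25.8% to 27.7%, one-direction gene shares of 9.16% to 10.6%, and GC differences of 0 to 0.25 points. The cause of these shifts was not tested. NF-Y and ETS kept a higher share at members, and AP-1, TEAD and TATAAA a lower one, in all 10 alternatives. No paired analysis was possible because there is 1 group.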
